A study of Mus musculus with 26 samples.

Results

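The mRNAs of 9 transcription factors that specify oligodendrocyte progenitor cells (OPCs) or drive their differentiation into oligodendrocytes (OLs) were followed in a chase of labelled RNA. The members were chosen by name, and they were Olig1, Olig2, Sox10, Sox8, Nkx2-2, Nkx6-2, Myrf, Tcf7l2 and Zfp488. All 9 were listed in the OL table of 9751 transcripts. In the OPC table of 8530 transcripts 6 of them were listed, and Nkx6-2, Myrf and Zfp488 were not. The lowest 0 h value in any replicate of either table was 1.00 FPKM, so a transcript may be missing from a table because it was low in 1 replicate, and the 3 unlisted members have no OPC value here.

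Mouse OPCs had been derived from epiblast stem cells of the strain 129S/SvEv and were kept in medium with bFGF and PDGFA. OLs had been differentiated from such OPCs with noggin, IGF-1, cyclic AMP, NT3 and T3 (thyroid hormone). Both cell types took up the uridine analogue 5-ethynyluridine (5-EU) for 24 h. Labelled RNA was then pulled down at 0, 1, 2, 4 and 6 h of a chase with plain uridine, in 3 OPC replicates (15 libraries) and 2 OL replicates (10 libraries). The cells are cultures from stem cells rather than cells of a brain, and the OLs were labelled during their differentiation. The study describes such OL cultures as mostly OLs, either mature or pre-differentiated, with some OPCs left that had not differentiated. According to the study's methods the OL replicates correspond to a pair among the OPC replicates, whose numbers are not given. A no-biotin OPC control was not analysed here.

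Olig1 and Olig2 are basic helix-loop-helix factors, and Olig2 is central to forming the lineage. Sox10 and its relative Sox8 are SoxE factors that keep the lineage and turn on myelin genes, together with Myrf, a membrane-bound factor of differentiating OLs. The homeodomain factors Nkx2-2 and Nkx6-2, the Wnt effector Tcf7l2 and the zinc finger protein Zfp488 act around the onset of differentiation. Short-lived mRNAs let a cell change the level of such regulators quickly, which is a general property of many transcription factor mRNAs.

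Of the 9 members, 5 carried the letters TATTTAT once in their annotated 3′ untranslated region (3′ UTR), a core of the AU-rich elements that many unstable mRNAs hold. These sites are shown because they are a sequence feature that was not used to choose the members. Each line gives 30 bases of GRCm38 on the strand of the gene, 5′ to 3′, with TATTTAT in capitals.
Olig2: gtgctaaataaTATTTATtacttgtttggt
Sox10: cgctgccccttTATTTATctccatagtcgc
Sox8: tgttgaagacgTATTTATgttctgttgtta
Nkx2-2: aaaatgctaaaTATTTATggccatgtacac
Tcf7l2: tggaccagtagTATTTATtgctttagaggt
The Olig2 window lies at chr16:91228592-91228621 on the plus strand and that of Tcf7l2 at chr19:55932532-55932561 on the plus strand. On the minus strand lie those of Sox10 (chr15:79155012-79155041), Sox8 (chr17:25566702-25566731) and Nkx2-2 (chr2:147183472-147183501). The letters were read on the mRNA strand only. Olig1, Nkx6-2 and Zfp488 held none in their annotated 3′ UTRs of 1274, 815 and 3121 bases, and the Myrf model has no annotated 3′ UTR. Over the 9981 listed transcripts with a 3′ UTR, 30% held TATTTAT at least once, and a longer 3′ UTR has more room for it. A match is a description of these letters and not of a working site.

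The labels of the cell types were checked against marker genes at 0 h, as FPKM (fragments counted per length of transcript and per mapped read of the library). Of 8 OL markers, 6 were listed in OLs and not in OPCs, and both that were listed in both tables passed the test as higher in OLs (log2 change 9.27 for Mbp and 4.54 for Cnp). Of 4 OPC markers, 2 were higher in OLs (Pdgfra by 1.70 and Lhfpl3 by 0.93, log2) and the other 2 did not pass (Cspg4 -0.53, limma adjusted p = 0.0961, and Ptprz1 -0.46, 0.323). Of 5 astrocyte markers, Slc1a3 was lower in OLs and Gfap (6.86 and 8.12 FPKM) and Aldh1l1 were listed in OLs alone. Of 6 neuron markers, Dcx was higher in OLs and Syt1 was listed in OLs alone (3.06 and 1.38 FPKM), and no marker of microglia or pluripotent cells was listed. Summed over each list, OL markers were at 37.6 to 55.1 FPKM in OPCs and 2796 to 6136 FPKM in OLs, OPC markers at 192 to 322 and 234 to 236, astrocyte markers at 179 to 224 and 104 to 165, and neuron markers at 83.3 to 189 and 200 to 215. The defining astrocyte markers Aqp4 and Gjb6 and the neuron markers Rbfox3 and Snap25 were listed in neither table. The part of cell mixture in the results that follow was not tested, and fewer cells of a type cannot be told apart from less RNA per cell.

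The first question was how much labelled RNA of each factor the cells held at 0 h. These values are relative to all mapped reads of the library. In each comparison a transcript passed when its adjusted p was under 0.05, from limma over all transcripts tested with Benjamini-Hochberg adjustment. All 6 members listed in both cell types passed, 4 higher and 2 lower in OLs, where 14.1% of the 8177 transcripts tested were higher and 17.5% lower. The median change of all transcripts was -0.01 log2. The count was 3 of 6 without OPC replicate 3, without OL replicate 1 or without OL replicate 2, and 3 of 6 with the replicate number as a block, where Olig1, Olig2 and Nkx2-2 did not pass.

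Sox10 differed most between the cell types. It was at 25.4, 4.06 and 11.9 FPKM in OPC replicates 1, 2 and 3 and at 111 and 89.0 FPKM in OL replicates 1 and 2. The groups did not overlap, although OPC replicate 2 lay far under the other OPC replicates, at the 7.29th percentile of its library against 61.8 in replicate 1. The change was 3.07 ± 0.54 (SE, 8.38-fold on the log2(FPKM + 1) scale, limma adjusted p = 0.00291). It was 2.44 without OPC replicate 2 and lost the call without OL replicate 1 (2.91, limma adjusted p = 0.0511).

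Tcf7l2 was at 15.6, 25.9 and 19.7 FPKM in the OPC replicates and at 91.3 and 71.7 FPKM in the OL replicates. Every OL value was thus well over every OPC value. The change was 1.97 ± 0.25 (SE, 3.91-fold, limma adjusted p = 0.000424), and it passed under all 11 alternative settings.

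Sox8 was at 133, 145 and 172 FPKM in OPCs and at 277 and 251 FPKM in OLs, again with no overlap. The change was 0.82 ± 0.19 (SE, limma adjusted p = 0.00952), and the call was lost without OL replicate 1 (0.75, limma adjusted p = 0.0712). Sox8 RNA was far more abundant than Sox10 RNA in OPCs, and in OLs it was 2.49 and 2.82 times as high in replicates 1 and 2, as FPKM.

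Nkx2-2 was at 24.0, 26.8 and 24.2 FPKM in OPCs and at 39.0 and 39.6 FPKM in OLs. Its change was the smallest of the 6 (0.63 ± 0.19, SE, limma adjusted p = 0.0337), and it passed under 6 of 11 alternatives. The call was lost without OPC replicate 3, OL replicate 1 or OL replicate 2 (limma adjusted p = 0.132, 0.143 and 0.142).

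The Olig genes stood the other way. Olig1 was at 1009, 1053 and 1079 FPKM in OPCs and at 635 and 506 FPKM in OLs, a change of -0.88 ± 0.23 (SE, limma adjusted p = 0.0163) that turned to 0.33 under quantile normalization (limma adjusted p = 0.109). It was among the most abundant transcripts of both cell types, at percentiles 99.5 to 99.6 of the OPC libraries and 99.7 to 99.8 of the OL libraries. Its lower FPKM in OLs thus went with a rank that was not lower. Olig2 was at 316, 332 and 321 FPKM in OPCs and at 218 and 190 FPKM in OLs, a change of -0.67 ± 0.18 (SE, limma adjusted p = 0.0196). Under quantile normalization the Olig2 change was -0.19 (limma adjusted p = 0.37). Both Olig calls were lost without OPC replicate 3 (limma adjusted p = 0.117 for Olig1 and 0.11 for Olig2) and without OL replicate 2 (0.0635 and 0.0916).

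Olig1 and Olig2 lie next to each other on chromosome 16, with 41094 bases between the end of the Olig2 model and the start of the Olig1 model. At 0 h Olig1 was 3.19, 3.17 and 3.36 times as high as Olig2 in the OPC replicates, and 2.92 and 2.67 times as high in the OL replicates, as FPKM.

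Of the members listed in OLs alone, Myrf was at 55.9 and 41.4 FPKM, Zfp488 at 37.5 and 28.6 FPKM and Nkx6-2 at 7.60 and 5.26 FPKM in OL replicates 1 and 2. In OLs the order of mean levels was Olig1 (571 FPKM), Sox8 (264), Olig2 (204), Sox10 (100), Tcf7l2 (81.5), Myrf (48.6), Nkx2-2 (39.3), Zfp488 (33.1) and Nkx6-2 (6.43). Of the neighbours in this order Sox10 and Tcf7l2 had overlapping replicates and the rest did not. In OPCs the order was Olig1 (1047 FPKM), Olig2 (323), Sox8 (150), Nkx2-2 (25), Tcf7l2 (20.4) and Sox10 (13.8), and the replicates of the last 3 overlapped.

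**Figure D1:**
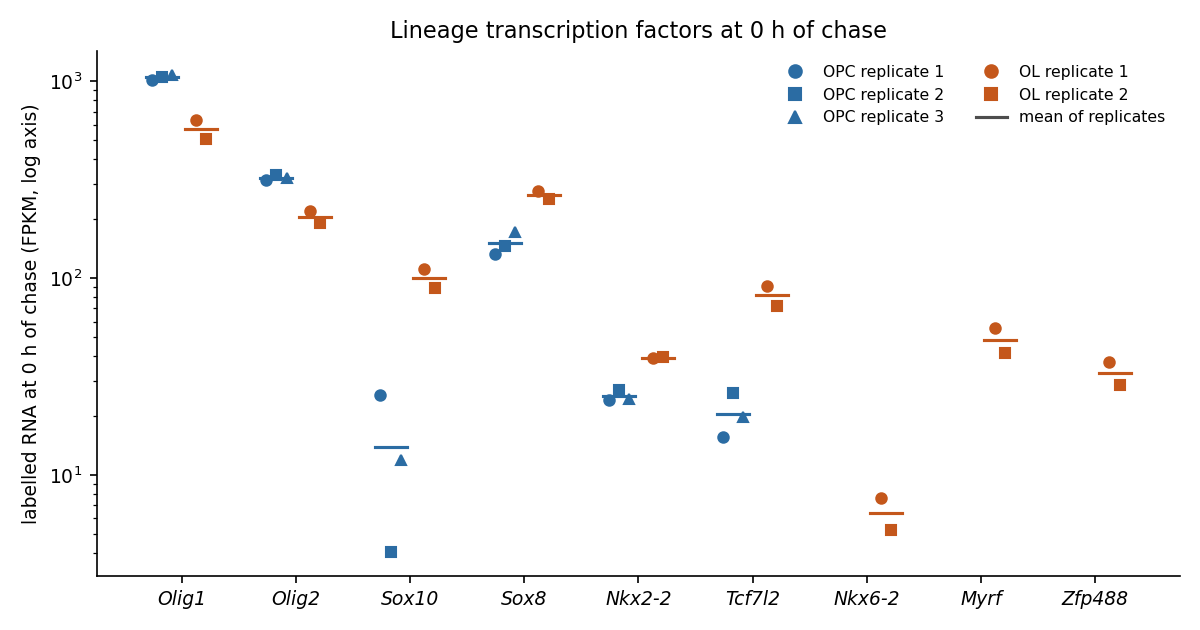
Labelled RNA of the 9 factors at 0 h of chase, in FPKM on a log axis, with 1 symbol for each replicate (blue OPC, orange OL) and a bar at the mean. Olig1 and Olig2 lay lower in OLs (Olig1 turned the other way under quantile normalization), the other 4 genes listed in both cell types lay higher, and 3 genes were listed in OLs alone.

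How fast the labelled RNA was lost was read from the level at each time relative to 0 h. The authors scaled the later libraries to spike-in RNA, so an error in 1 scale factor moves every transcript of that library together. All 6 members in OPCs fell over the chase, with slopes of -0.60 to -0.44 log2(FPKM + 1) per h, where 81.9% of the 8530 OPC transcripts fell. The size of these slopes depended on the setting. Without the 6 h libraries those of Sox8 and Olig2 were -1.13 and -1.01. With 0.1 instead of 1 added to each FPKM that of Sox10 went from -0.46 to -0.73. In OLs all 9 fell, with slopes of -0.63 (Sox8) to -0.14 (Myrf), where 68.9% of 9751 fell. Without OL replicate 2 the calls of Myrf (-0.06, limma adjusted p = 0.519) and Olig1 (-0.18, 0.0987) were lost, and so they were without the 6 h libraries (-0.03, 0.758 for Myrf and -0.17, 0.0998 for Olig1). The median slope of all transcripts was -0.38 in OPCs and -0.20 in OLs. With each library set to its 0 h median, which removes the decline shared by all transcripts, 0 of 6 OPC slopes (also 0 at an unadjusted p under 0.05, limma) and 5 of 9 OL slopes passed. A straight line over 6 h is a poor measure of a loss that comes early and then levels off. By half-life, given below, Sox8 lay at percentiles 1.10 to 3.54 and Olig2 at 3.90 to 7.65 in the OPC replicates.

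Sox8 RNA was lost early in every replicate. In OPC replicates 1, 2 and 3 it stood at 22.9%, 62.5% and 44.7% of its 0 h level after 1 h and at 9.70%, 7.75% and 13.6% after 2 h. In OL replicates 1 and 2 it stood at 37.1% and 65.0% after 1 h and at 18.9% and 29.4% after 2 h. At 2 h at most 9.25% of a library's transcripts had kept less than Sox8 in any of the 5 replicates.

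Olig2 also fell early. After 2 h 10.9%, 12.9% and 28.0% was left in OPCs and 29.9% and 40.4% in OLs. In OPCs it was at 6.89%, 5.12% and 6.88% at 4 h and at 9.29%, 7.40% and 13.1% at 6 h, so all 3 replicates stood higher at 6 h than at 4 h. In OLs it went from 19.0% to 24.9% in replicate 1 and from 18.4% to 9.05% in replicate 2, so the OL replicates moved in opposite directions. Sox8 did the same in 3 of 3 OPC replicates. Among all OPC transcripts 12.3% to 32.3% of a replicate stood higher at 6 h than at 4 h. These values are on the spike-in scale, and the part of that scale in the late rise was not tested.

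Olig1 kept much more of its RNA than Olig2. It was at 57.6%, 81.5% and 72.3% after 2 h in OPCs and at 83.6% and 72.8% in OLs. At 6 h it was at 13.5%, 12.6% and 21.4% in OPCs and at 38.3% and 31.2% in OLs, with no overlap between the cell types. Its curve ran close to the median of all transcripts in both, which at 6 h was 11% to 17.7% in the OPC replicates and 31.5% to 36.6% in the OL replicates.

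Sox10 fell steeply where it could be followed. In OPC replicates 1 and 3 it was at 7.92% and 22.1% after 2 h, and in OLs at 35.1% and 43.2%. In OPC replicate 2, where it started at 4.06 FPKM, it stood at 124% after 1 h and 45.2% after 2 h and was listed at 0 at 4 and 6 h. Its course in that replicate therefore rests on low values.

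Nkx2-2 was at 25.7% to 35.2% of its 0 h level after 2 h in OPCs and at 33.5% and 40.0% in OLs. Tcf7l2 was slower, with 56.3% to 75.2% left after 2 h in OPCs and 59.7% and 68.3% in OLs. Of the factors listed in OLs alone, Zfp488 was at 21.4% and 29.2% after 2 h, close to Sox8. Myrf was at 128% and 74.3% after 2 h and at 67.9% and 32.8% after 6 h, so its OL replicates differed widely. Nkx6-2, the lowest of the 9, was at 99.0% and 42.4% after 2 h and at 26.8% and 20.8% after 6 h.

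**Figure D2:**
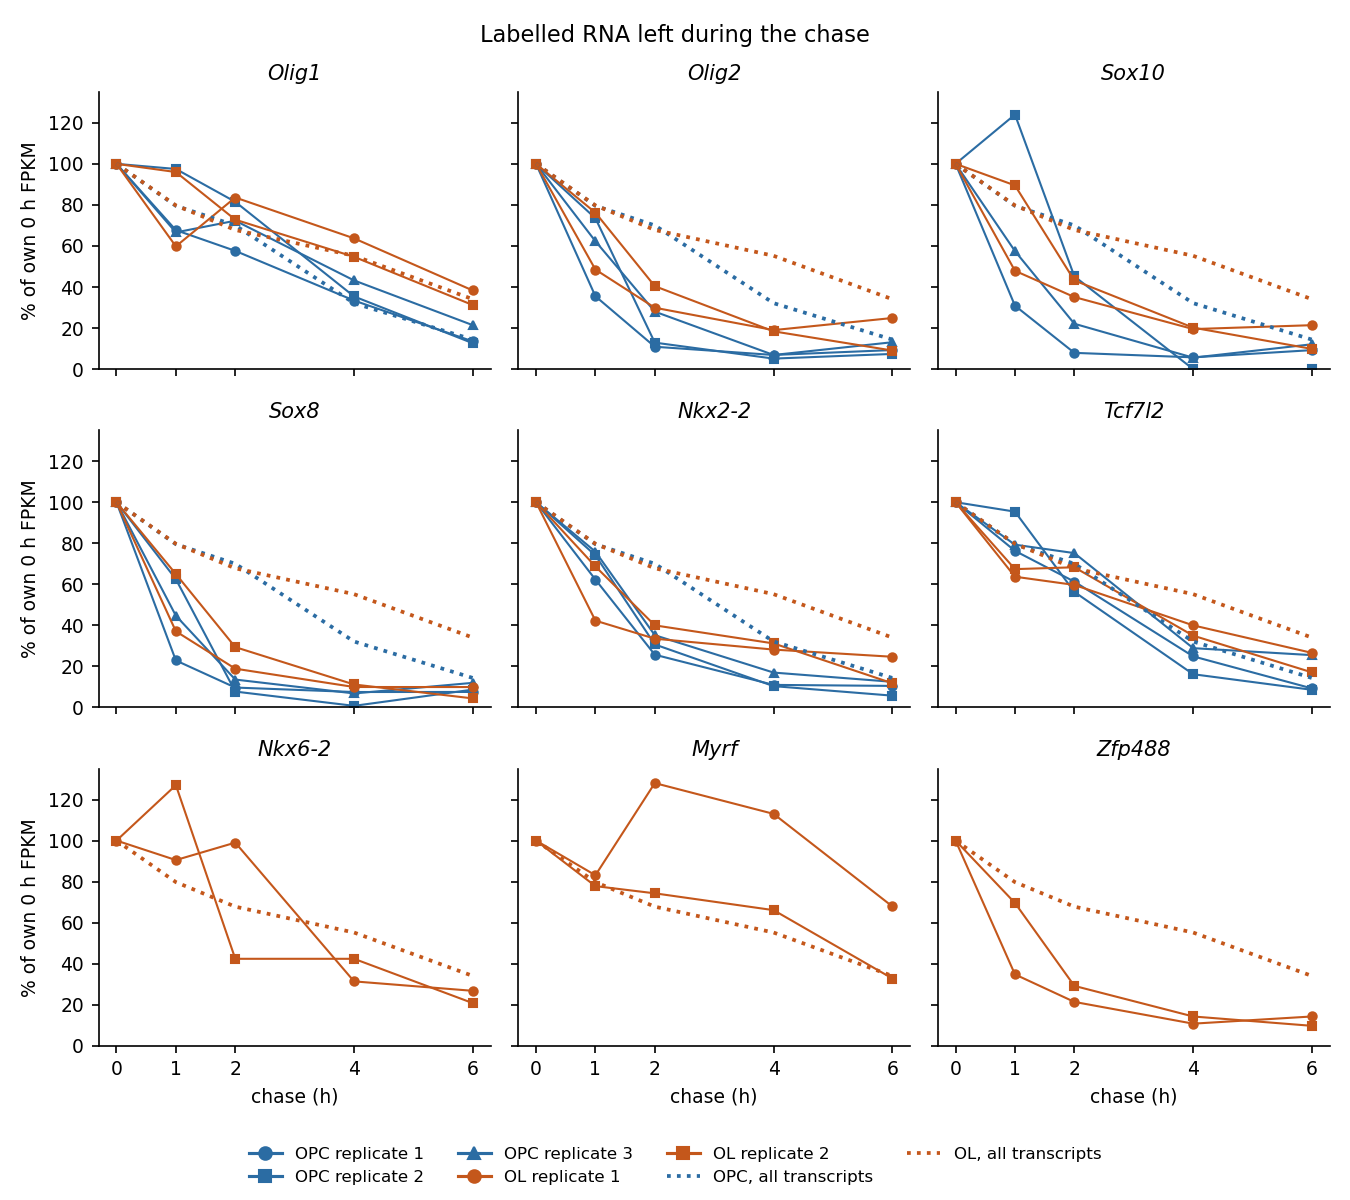
Labelled RNA left at 0, 1, 2, 4 and 6 h of chase as a percentage of the 0 h FPKM of the same replicate, for each factor (blue OPC, orange OL, 1 line for each replicate), with dotted lines for the mean over replicates of the median of all transcripts. Sox8, Olig2, Sox10, Nkx2-2 and Zfp488 fell under the dotted lines by 2 h, whereas Olig1 and Myrf ran close to or above them.

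The difference in decline between the cell types was tested with a cell type by time term. Only Olig1 passed of the 6, with a slope that was 0.21 ± 0.05 (SE) log2 units per h less steep in OLs (limma adjusted p = 0.00477). Its slopes were -0.46, -0.52 and -0.35 across the OPC replicates against -0.18 and -0.28 in OLs, so the groups did not overlap. In the same test 31.5% of 8177 transcripts fell more slowly in OLs and the median difference was 0.14, so the Olig1 value was near that of transcripts in general. With each library at its 0 h median the Olig1 difference was -0.00 (limma adjusted p = 0.96). It was 0.16 without OL replicate 1 (limma adjusted p = 0.0923), 0.18 without the 6 h libraries (0.121) and 0.21 when 1 slope per replicate was the unit (0.105).

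The other 5 differences ran from -0.04 (Sox8, 95% interval -0.38 to 0.30) to 0.17 (Nkx2-2, -0.00 to 0.33). That of Sox10 was 0.00 (-0.22 to 0.22), and with 0.1 instead of 1 added to each FPKM it was 0.26 (limma adjusted p = 0.236). The Sox10 value thus depended on the added constant, as its OPC levels were low. For Olig2 the difference was 0.15 (-0.11 to 0.40, limma adjusted p = 0.375), and it was 0.42 without the 6 h libraries (limma adjusted p = 0.0127). It was 0.02 without OL replicate 1 and 0.28 without OL replicate 2, and passed in neither case. The Olig2 comparison thus turned on the 6 h libraries, where its level stood higher than at 4 h in all 3 OPC replicates. Tcf7l2 differed by 0.11 (-0.02 to 0.24, limma adjusted p = 0.185) and passed without OPC replicate 3 (0.17, limma adjusted p = 0.0439).

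The deposited half-lives put the 9 factors into short-lived and long-lived members. The authors fitted 1 exponential decay to each transcript of each replicate by least absolute deviations, with a ceiling of 6 h. Sox8 had the shortest half-life of the members in all 5 replicates, at 0.47, 0.76 and 0.86 h in OPC replicates 1, 2 and 3 and at 0.83 and 1.27 h in OL replicates 1 and 2. In each replicate between 1.10% and 3.54% of transcripts had a shorter one. Zfp488 came next in OLs, at 0.90 and 1.43 h (percentiles 4.14 and 4.65).

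Olig2 had half-lives of 0.67, 0.93 and 1.09 h in OPCs and 1.15 and 1.64 h in OLs, at percentiles 3.90 to 8.46 of its replicates. Sox10 was at 0.59, 1.75 and 0.96 h in OPCs and at 1.32 and 1.73 h in OLs, where the 1.75 h came from the replicate with the low start. Nkx2-2 was at 1.26, 1.23 and 1.57 h in OPCs and at 1.27 and 1.85 h in OLs, with percentiles of 10 to 19 in OPCs and 11 and 10.7 in OLs.

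The remaining members had longer half-lives. Tcf7l2 was at 2.00, 1.96 and 3.04 h in OPCs and at 3.03 and 2.64 h in OLs. Nkx6-2 was at 3.16 and 2.65 h in OLs. In OLs both lay under the median, at percentiles of 28.6 to 38.5 for Tcf7l2 and 28.6 to 40.2 for Nkx6-2. Olig1 was at 2.51, 2.67 and 3.31 h in OPCs and at 6 h (the ceiling) and 4.36 h in OLs, and Myrf at 6 h (the ceiling) and 4.66 h. Over all transcripts the median half-life ranged from 2.05 to 2.79 h among OPC replicates, and the OL medians were 4.15 and 4.05 h, so Olig1 lay over it in all 5 replicates and Myrf in both OL replicates.

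In the order of half-lives Sox8 came first and Olig1 last of the 6 shared members in all 5 replicates. Olig2 came before Nkx2-2 in all 5, with no overlap between their OPC values and with overlap in OLs. Sox10 changed places with them between replicates and overlapped both. The neighbours Olig1 and Olig2 stayed apart in every replicate, with a half-life of Olig1 that was 3.75, 2.86 and 3.03 times that of Olig2 in OPCs and 5.22 (a lower bound, since Olig1 was at the ceiling) and 2.66 times in OLs.

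**Figure D3:**
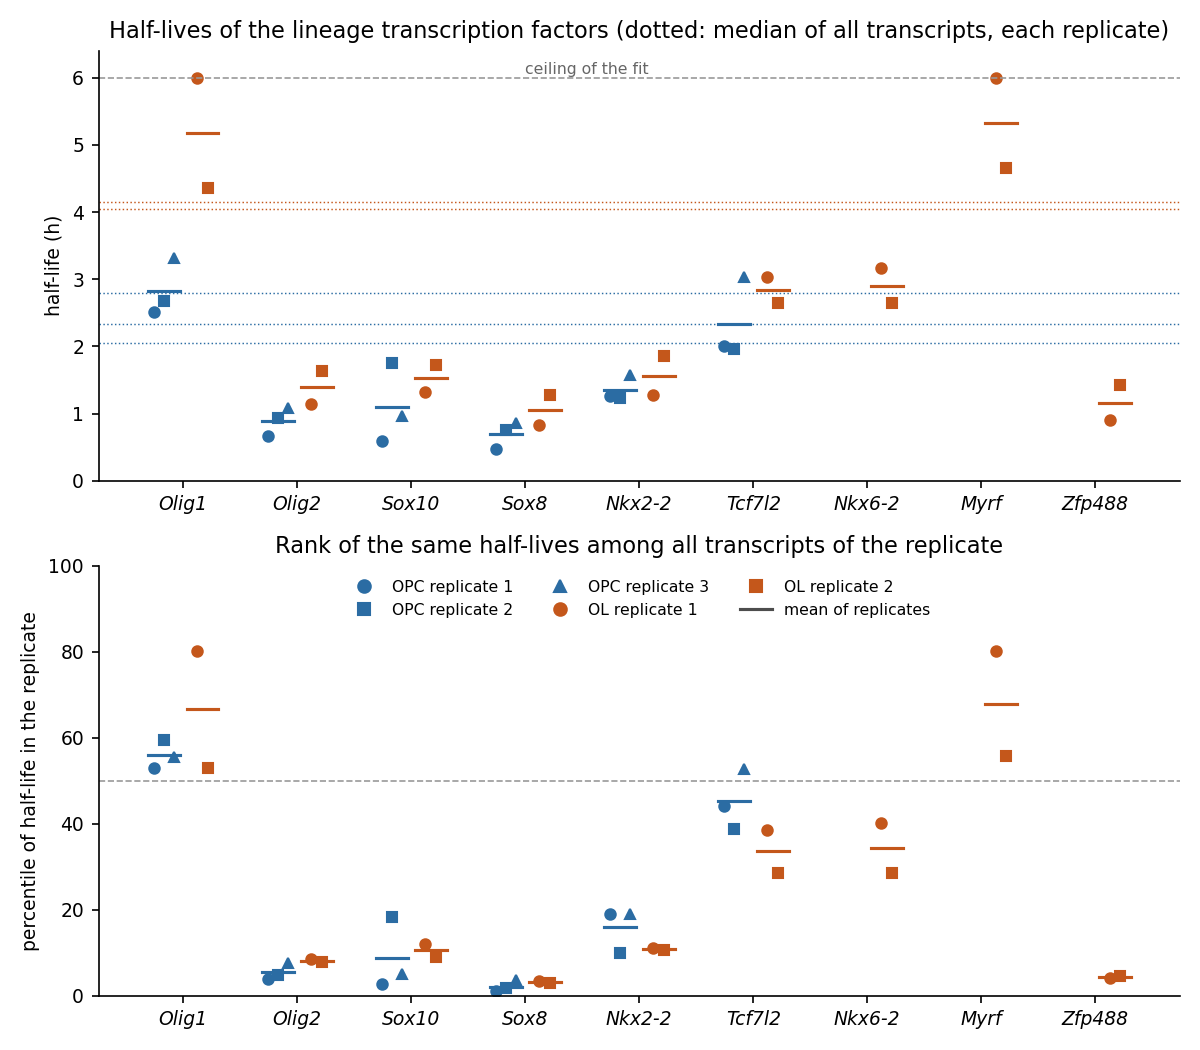
Half-lives of the 9 factors in hours (top) and their percentile among all transcripts of the same replicate (bottom), with 1 symbol for each replicate and a bar at the mean. Sox8, Zfp488 and Olig2 stayed under the 10th percentile in every replicate that listed them, and Olig1 and Myrf lay over the 50th.

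A least-absolute-deviations curve usually passes through a single measured point, and this held for 32 of the 36 half-lives of the members. In 14 of them the point was the 4 h library, in 10 the 2 h library, in 5 the 1 h library and in 3 the 6 h library. Of the other 4, the Olig1 and Myrf values of OL replicate 1 were at the ceiling. The 1.96 h of Tcf7l2 in OPC replicate 2 was shared, to 0.01 h, by 2186 of 8491 transcripts (25.7%) of that replicate, and the 0.76 h of Sox8 in the same replicate by 78. There all points lay off the curve, 1 h and 2 h above it and 4 h and 6 h below it for Tcf7l2, and the fitted value then depends on those sides and not on the heights of the points.

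The half-lives of OLs and OPCs were then compared, over the 8112 transcripts that had all 5 values. Of the 6 members 0 passed with limma, and Olig1 alone had an unadjusted p under 0.05 (0.0494). Of all transcripts 0% passed, with 1898 at an unadjusted p under 0.05. When limma was run without its mean-variance trend, a setting chosen after seeing the data, 287 of 8112 passed, and again none of the 6. All 6 estimates were longer in OLs, at 0.19 (Nkx2-2) to 0.86 (Olig1) log2 h, while the median over all transcripts was 0.37. Before any centring Olig1 (0.86), Olig2 (0.64), Sox10 (0.60) and Sox8 (0.60) lay over that median, and Tcf7l2 (0.31) and Nkx2-2 (0.19) under it. All 6 turned to shorter when each replicate was centred on its own median, at -0.71 (Nkx2-2) to -0.04 (Olig1). Centring takes the same amount from every transcript, and that amount was larger than 0.37, so the shared turn of sign comes with the setting.

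The intervals were wide. For Olig1 the 95% interval of the log2 difference ran from 0.00 to 1.73 (limma adjusted p = 0.213), and for Olig2 from -0.32 to 1.60 (0.386). For Sox8 it ran from -1.31 to 2.52 (limma adjusted p = 0.67), and for Tcf7l2 from -0.45 to 1.07 (0.598). A change by a factor of 2 in either direction was therefore not excluded for Sox8, and a longer half-life by that factor was within the interval for 5 of the 6 members (Nkx2-2 reached 0.84).

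The rank of each half-life within its replicate takes out a shift common to all half-lives of that replicate. It does not take out an error in the scale of a single library, since the fitted curves of different transcripts pass through different time points. On 1 mean decay curve the rank difference of Olig1 was -0.431 and that of Sox10 3.3 points. None of the 6 members passed here either (limma, 0 at an unadjusted p under 0.05), where 0.284% of 8112 transcripts did. The OL minus OPC difference was -15.2 percentile points for Tcf7l2 (95% interval -31.9 to 1.57), -7.78 for Nkx2-2 (-20.1 to 4.55) and 8.65 for Olig1 (-16.9 to 34.2). For Olig2, Sox10 and Sox8 it was 0.212, -0.929 and -0.452. The interval for Olig2 was -9.74 to 10.2 points, and that for Sox8 was -10.1 to 9.24 points.

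**Figure D4:**
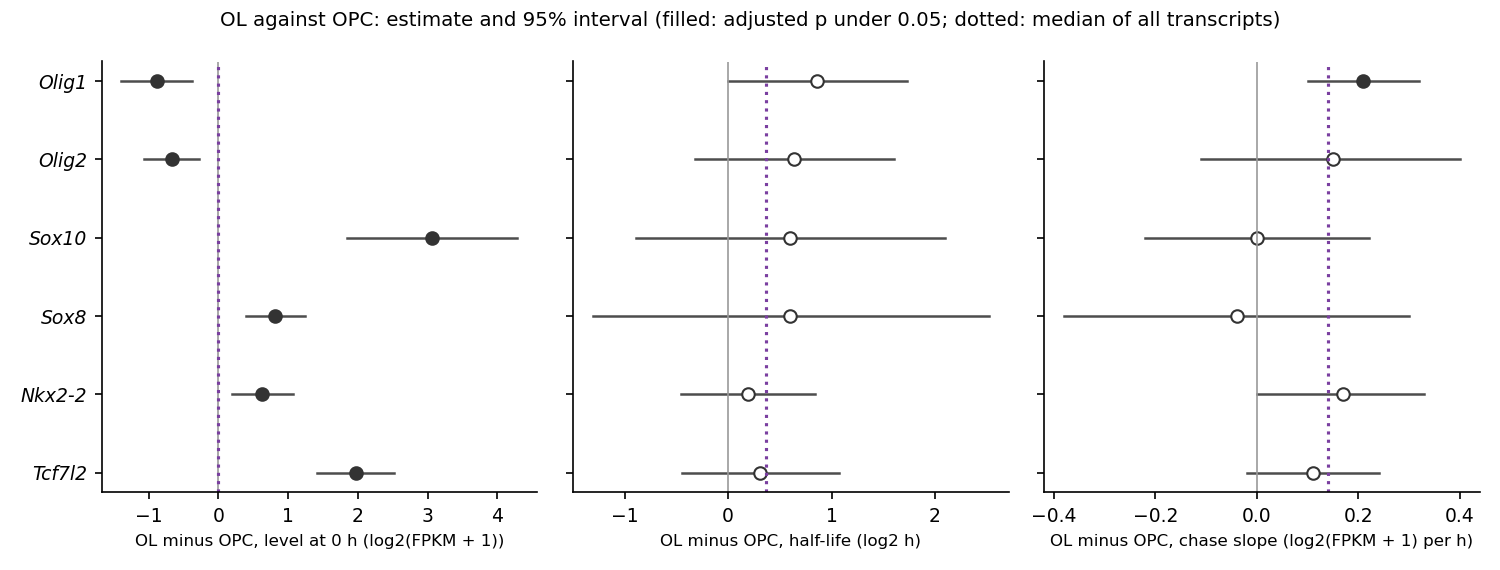
OL minus OPC differences of the 6 factors listed in both cell types, with 95% intervals, in level at 0 h, half-life and chase slope. Filled points passed at an adjusted p under 0.05, the dotted line is the median of all transcripts, and the Olig1 level turned positive under quantile normalization.

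Features of the mRNAs other than the factors' names were then set beside these values. The 5 members with TATTTAT were Olig2, Sox10, Sox8, Nkx2-2 and Tcf7l2. They included all members listed in both cell types with a mean OPC half-life under 2 h, and also Tcf7l2, whose mean was 2.33 h. Zfp488 had a short half-life with no TATTTAT but with 5 copies of the shorter ATTTA, which 69.9% of transcripts with a 3′ UTR held. Across transcripts, the 2453 with TATTTAT had a median half-life of 2.20 h in OPCs and 3.57 h in OLs, and the 5589 without it 2.95 and 4.90 h. These medians are a description, and length of the 3′ UTR, which was not held fixed, was not tested.

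The study asked how the codons for phenylalanine and lysine relate to mRNA stability, so codon use is given for the members. All 9 used UUU less than the median transcript, with a UUU share of UUU plus UUC of 0% (Olig1) to 37.5% (Sox10) against a median of 44.4%. The AAA share of AAA plus AAG was 10.0% (Olig1) to 38.1% (Zfp488) against a median of 37.5%, and 7 of 9 lay under that median. The share of G or C at the last position of codons was 84.6% in Nkx2-2, 83.6% in Olig2 and 78.1% in Olig1, against a median of 60.6%, and only Zfp488 (59.6%) lay under it. Olig1 and Olig2 thus shared low UUU and AAA shares and differed in half-life.

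Other genes that work with these factors were taken as lists, and their counts at 0 h stand beside the 14.1% of all transcripts that were higher and the 17.5% that were lower in OLs. The E proteins, which pair with Olig factors, are Tcf3, Tcf4 and Tcf12. At 0 h 1 of the 3 was lower in OLs (Tcf3, -1.74 ± 0.18 log2, SE, limma adjusted p = 0.000161) and the others did not pass. Of 12 factors that hold back differentiation 7 were listed in both cell types, 1 of which was higher (Sox6, 1.02) and 1 lower (Sox11, -1.74) in OLs. The other 5 (Id1, Id2, Id4, Hes1 and Tcf7l1) were listed in OLs alone. The OL replicates lay far apart for Id1 (5.57 and 95.2 FPKM) and Id3 (27.5 and 204 FPKM), which were picked out after their values were seen. The median half-life of these 7 was 1.82 h in OPCs and 1.68 h in OLs.

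Of 16 other factors that promote differentiation 12 were listed in both, with 5 higher and 3 lower in OLs. The largest changes were those of Zeb2, a repressor of BMP signalling (2.58), Klf9, a thyroid hormone target (2.26), and Myt1, a zinc finger factor (1.24). Of 10 chromatin partners 3 were lower (Prmt5 -1.19, Hdac3 -0.75 and Smarca4 -0.53), and the others did not pass. In the test of the slope difference, where 31.5% of all transcripts fell more slowly in OLs, 5 of 10 chromatin partners, 3 of 12 promoting factors and 1 of 3 E proteins did, and of the 7 inhibitors 0 passed (limma, 0 also at an unadjusted p under 0.05). Median half-lives were 1.86 and 3.29 h for the promoting factors and 1.92 and 3.69 h for the chromatin partners, in OPCs and OLs. For all 8112 transcripts they were 2.60 and 4.52 h.

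The genes that Sox10 and Myrf turn on during myelination moved with the label of the cells. Of 16 targets 6 were listed in both cell types and all 6 were higher in OLs, with a median change of 5.50 log2. The largest were those of Mbp (9.27), Ugt8a, which makes galactolipids (5.97), and Gpr17, a receptor of newly formed OLs (5.51). A further 9 targets were listed in OLs alone. In the test of the slope difference 1 of the 6, Gpr17, passed, with a steeper slope of log2(FPKM + 1) in OLs. Its half-lives did not show a faster loss in OLs, at 0.97 to 1.81 h in OPCs and 1.66 and 1.96 h in OLs. Gpr17 started at 5 to 6.61 FPKM in OPCs and at 323 and 299 FPKM in OLs. The part of the added constant in its slope difference was not tested. The half-lives of the 6 had medians of 4.04 h in OPCs and 5.76 h in OLs, longer than those of the factors Sox10 and Sox8.

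The transcripts most like each factor over the 25 libraries were found by Pearson's r of log2(FPKM + 1). Libraries of a time course share their cells and the decline of all labelled RNA, so r is high for many transcripts and is given as a description. Closest to Olig1 were Rasa3 (0.975), Lpcat1 (0.968) and Hist3h2a (0.967), and closest to Olig2 were Med18 (0.967), Inka2 (0.960) and Pygo2 (0.958). Closest to Sox10 were Aatk (0.968), Inava (0.966) and Pik3r3 (0.962), and to Sox8 Smcr8 (0.968), Tob1 (0.961) and Pnrc2 (0.955). Nkx2-2 was most like Map3k11 (0.978), Ccng2 (0.974) and Mlycd (0.969), and Tcf7l2 most like Bace1 (0.981), Sh3d19 (0.978) and Dennd4a (0.976). No member was among the 3 closest to another. Between members r ran from 0.19 (Olig1 and Sox10) to 0.91 (Sox8 and Nkx2-2), and it was 0.74 for Olig1 and Olig2.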

How the data were processed

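The authors clipped adapters, aligned reads to GRCm38 with HISAT2 2.1.0 and tabulated FPKM with StringTie 1.3.5 over canonical coding transcripts of GENCODE vM9. The deposited FPKM of later time points are scaled to spike-in RNA (LYSa and luciferase). The 0 h columns carry up to 6 decimals and 10 significant digits and the later columns at most 6 significant digits, so 0 h was read as unscaled. The deposited half-lives, in hours, are the authors' fits with a ceiling of 6 h. A refit fell within 0.01 h of them for 98.17% to 99.91% of transcripts. No read counts were given, so depth is unknown. At 6 h 15.7% to 21.6% of OPC and 0.79% to 4.08% of OL transcripts were listed at 0.

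Levels were tested as log2(FPKM + 1), half-lives as log2 h and as ranks, with limma 3.58.1 (R 4.3.3, eBayes with a trend except for ranks), two-sided, with Benjamini-Hochberg adjustment over all transcripts. Slopes had a replicate intercept. Alternatives included a pseudocount of 0.1, a minimum of 5 FPKM and leaving out each replicate. Each test was run on simulated data with known changes first. All members were named with their values, and of each list at most the 3 largest changes that passed. The members and lists were chosen with earlier results of these data known. Sequences came from GENCODE M21 on GRCm38, matched by transcript identifier for all 10104 transcripts.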

Additional observations from a re-analysis of the deposited data

Results flagged for a closer look

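Olig1 was singled out because its chase slope differed between the cell types by the interaction test: it fell 0.21 log2 units per h more slowly in OLs than in OPCs (limma adjusted p = 0.00477) over 3 OPC and 2 OL replicates. In the same test 31.5% of 8177 transcripts fell more slowly in OLs, with a median difference of 0.14. The Olig1 difference was -0.00 with each library at its 0 h median (limma adjusted p = 0.96), and its call was lost with 1 slope per replicate (0.105), without OL replicate 1 (0.0923) and without the 6 h libraries (0.121). No group had enough replicates for a test of single outlying samples.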

How the results depend on the processing

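With 3 replicates against 2 and no read counts, changes in half-life well over a doubling could be missed (upper 95% limits of 1.60 to 2.52 log2 for Olig2, Olig1, Sox10 and Sox8), and half-lives over 6 h cannot be told apart. Numbers of members that passed were 6 for the 0 h level (3 with the replicate block, 3 to 6 leaving out 1 replicate), 6 for the OPC slopes (0 with each library at the 0 h median), 9 for the OL slopes (5 with the 0 h median, 7 without the 6 h libraries, 8 with no replicate block, 7 to 9 leaving out 1 replicate) and 1 for the slope difference (by limma 0 with the 0 h median and 0 with 1 slope per replicate, of which 0 and 1 had an unadjusted p under 0.05, and 0 to 2 leaving out 1 replicate). The OLs match a pair of OPC replicates whose numbers are not given, and same-numbered OPC and OL deviations at 0 h correlated at 0.06 and 0.01, so pairing by number was tried as an alternative only. With the replicate block the 0 h calls of Olig1 (limma adjusted p = 0.055), Olig2 (0.0675) and Nkx2-2 (0.152) were lost, though their changes kept a direction and a size of -0.86, -0.67 and 0.61. The replicate block moved the half-life rank difference of Sox8 to 0.16 points. Under quantile normalization the Olig1 level turned to 0.33. Half-life differences centred on the replicate median were -0.04 (Olig1), -0.26 (Olig2), -0.30 (Sox10), -0.30 (Sox8), -0.71 (Nkx2-2) and -0.59 (Tcf7l2), and on 1 mean decay curve -0.03 (Olig1), -0.08 (Nkx2-2) and -0.29 (Tcf7l2), while Olig2 (0.49), Sox10 (0.64) and Sox8 (0.47) kept positive estimates on that curve that did not pass. Both settings remove a shared difference by construction. Rank differences on the mean curve were -0.431 (Olig1) and 3.3 (Sox10). With the 0 h median the OL slopes were 0.00 (Olig1) and 0.09 (Myrf), and the slope differences -0.00 (Olig1), -0.06 (Olig2), -0.21 (Sox10), -0.04 (Nkx2-2) and -0.10 (Tcf7l2), beside -0.26 for Sox8, whose sign did not turn. The Sox8 slope difference was 0.34 without the 6 h libraries. Leaving out 1 replicate turned the sign of the half-life difference of Nkx2-2 (-0.08 to 0.46), of the rank differences of Olig1 (-6.09 to 23.4), Olig2 (-0.512 to 1.23), Sox10 (-3.81 to 3.87) and Sox8 (-0.912 to 0.16), and of the slope differences of Sox10 (-0.11 to 0.11) and Sox8 (-0.16 to 0.07), none of which passed. The causes of the other changes were not tested.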
